A study of Homo sapiens with 6 samples.

Results

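The nuclear genes for mitochondrial ribosomal proteins were followed in H9 cells, a long-established line of human embryonic stem cells, after knockdown of alpha satellite RNA (ALR). Members were all rows of the gene count table whose symbol is MRPS or MRPL plus a number and at most a letter A, B or C. This gave 76 of 53719 rows, of which 29 carry a small-subunit name (MRPS) and 47 a large-subunit name (MRPL). Enough counts for a test were found in 63 members, 24 small and 39 large. The cells were kept in RSeT, a medium sold for a naive-like state, and both groups were transfected with a gapmer, an antisense oligonucleotide that directs cleavage of the RNA it pairs with. The knockdown group received the gapmer against ALR, the RNA made from centromeric repeats, and the control group a control gapmer. Total RNA was taken 48 h later, with 3 libraries per group, named a, b and c. All libraries come from 1 cell line, and the table has no row for the repeat RNA, so the knockdown itself was not analysed here.

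The mitochondrial ribosome translates the few proteins encoded in mitochondrial DNA, which are core subunits of the respiratory chain and of ATP synthase. Its RNAs are made in the mitochondrion, but its proteins are encoded in the nucleus, made in the cytosol and imported. Many have bacterial relatives, whereas others are found in mitochondria only. The small subunit holds the messenger RNA and the decoding site, and the large subunit joins amino acids and releases the chain through an exit tunnel held at the inner membrane.

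Counts per library totalled 25087629 to 36576752. Knockdown library a had counts in 29678 rows against 25898 to 26788 in the other 5 libraries, so results are also given without it where they change. Across all rows, 155 of 19721 tested genes (0.786%) passed an adjusted p of 0.05, 27 higher and 128 lower in the knockdown (edgeR's quasi-likelihood test, Benjamini-Hochberg adjustment). Leaving out 1 library changed this count to 26 (control a), 42 (control b), 42 (control c), 102 (knockdown a), 61 (knockdown b) or 1309 (knockdown c). Summed pluripotency markers stood at 5427 to 6133 CPM (counts relative to library size) in the knockdown and 5315 to 5419 in the control, with SOX2 listed at 0 in every library. Summed naive-state markers stood at 72.4 to 80.6 and 72.7 to 78.1 CPM, but KLF17, a defining one, had 22 counts in all 6 libraries together. The 8 trophectoderm and amnion markers summed to 2.37 to 3.53 and 2.39 to 2.995 CPM, the 8 germ-layer markers to 17.4 to 18.5 and 14.8 to 16.6, and the 6 fibroblast markers to 86.7 to 96.3 and 90.6 to 104. Most of the germ-layer sum came from MIXL1, with means of 13.1 CPM in the knockdown and 11.3 in the control. Most of the fibroblast sum came from COL1A2 (67.0 and 77.0 CPM) and COL1A1 (22.4 and 21.0). The fibroblast markers COL3A1, DCN and LUM had 18, 26 and 2 counts over all libraries. No gene of these 5 lists was called.

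No mitochondrial ribosomal protein gene passed the adjusted threshold in either direction. Changes were small, and 57 of the 63 tested members lay within 0.25 of 0 on the log2 scale, beside 14496 of all 19721 tested genes. The log2 fold change, knockdown over control, ranged from -0.17 (MRPS28) to 0.31 (MRPS34) among small-subunit members and from -0.15 (MRPL33) to 0.61 (MRPL4) among large-subunit members. The median change was 0.01 for the small subunit and 0.03 for the large, beside 0.02 for all tested genes. In 35 of 63 members (55.6%) the change was above 0, beside 54.4% of all tested genes. For 58 of 63 members (92.1%) the whole 95% interval of the change lay inside 0.5 log2 units, or 1.41-fold, in either direction, beside 57.3% of all tested genes. Members also had narrower intervals, with a median SE of 0.08 beside 0.12 over all tested genes. The 5 members whose interval reached further were MRPL4, MRPL54, MRPL19, MRPL28 and MRPS17, in each case on the higher side.

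**Figure D1:**
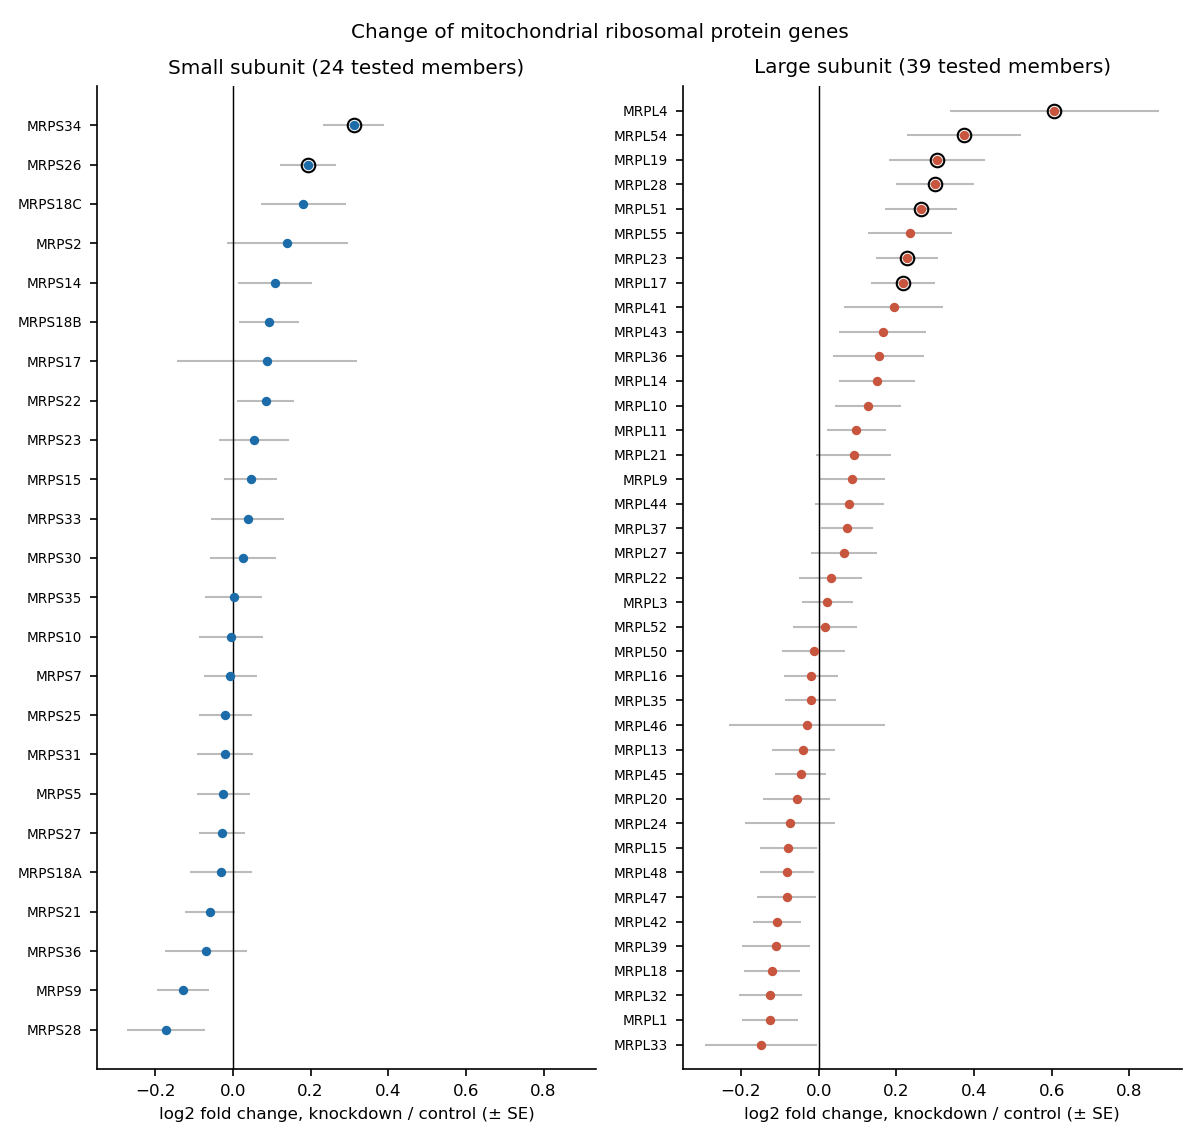
Log2 fold change of each tested member (horizontal axis, knockdown over control; bars are SE), with 24 small-subunit genes on the left and 39 large-subunit genes on the right. Black rings mark the 9 members with an unadjusted p under 0.05, and all 9 lie to the right of 0. Within 0.25 of 0 lie 57 of 63 members, beside 14496 of all 19721 tested genes (not drawn).

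Of the 63 tested members, 9 had an unadjusted p under 0.05, and all were higher in the knockdown. They were 2 small-subunit genes, MRPS34 and MRPS26, and 7 large-subunit genes, MRPL28, MRPL51, MRPL23, MRPL17, MRPL54, MRPL19 and MRPL4. Their share of the tested members was 14.3%, and 14.3% of all tested genes also passed that threshold. By direction, 6.68% of all tested genes were higher and 7.57% lower at this p, against 9 and 0 of 63 members. The count moved with the library left out. Without knockdown a, 8 members were higher and 0 lower, where 7.04% of all tested genes were higher. Without knockdown b, 2 were higher and 2 lower (all genes 5.74% and 5.21%), and without knockdown c, 7 were higher and 4 lower (all genes 7.39% and 11.9%). Without control b, 2 members were higher (all genes 3.92%), and without control c, 3 were (all genes 4.21%).

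MRPS34, a protein of the small subunit with no bacterial relative, had the smallest p of any member. The gene lies at chr16:1771890-1773155 on the minus strand (GRCh38, ENSG00000074071.14), and its span is covered by no other annotated gene. It stood at 44.2, 52.4 and 46.2 CPM in the knockdown and at 40.4, 37.1 and 37.7 CPM in the control, in the order a, b, c that is kept throughout. All 3 knockdown libraries were above all 3 controls, with library b highest. Means were 47.6 ± 4.26 and 38.4 ± 1.73 CPM (SD, n = 3 each). On the log2 scale the change was 0.31 ± 0.08 (SE). With edgeR's quasi-likelihood test p was 0.00185 and the adjusted p 0.0959. The DESeq2 Wald test gave an adjusted p of 0.0335, the edgeR fit with no low-count filter 0.00969, and the edgeR fit without knockdown c 0.0499. Over 15 alternatives the adjusted p ranged up to 0.400 (without control c), so the call of this gene differed between fits. These 3 fits called 2.72%, 3.29% and 6.4% of all genes they tested.

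MRPS26, also a small-subunit protein found in mitochondria only, stood at 29.2, 27.3 and 28.4 CPM in the knockdown and at 25.6, 24.4 and 24.3 in the control. Here the groups did not overlap and both were narrow. The log2 fold change was 0.19 ± 0.07 (SE), with an adjusted p of 0.254 (edgeR). The other 22 tested small-subunit members had unadjusted p above 0.05.

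Among large-subunit members, MRPL28, a protein with a bacterial relative, stood at 37.2, 41.4 and 33.1 CPM in the knockdown and at 34.5, 28.0 and 28.4 in the control. MRPL51, which is specific to mitochondria, stood at 49.2, 52.4 and 40.3 CPM against 41.5, 37.7 and 39.2. In both genes library b was the highest knockdown value and library c the lowest, below control a. Their log2 fold changes were 0.30 ± 0.10 and 0.26 ± 0.09 (SE), with adjusted p of 0.211 and 0.231 (edgeR). With no low-count filter the edgeR fit called both (adjusted p 0.0229 and 0.0443), and without knockdown c it called MRPL51 (adjusted p 0.0162). Over 15 alternatives the adjusted p ranged up to 0.603 for MRPL28 and 0.573 for MRPL51, both without control c. Exons of other genes share 7.33% of the exon bases of MRPL28 and 31.3% of those of MRPL51. In MRPL51, NCAPD2 on the opposite strand covers 24.8% of the span.

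Several proteins line the exit of the tunnel through which the new chain leaves the ribosome. All 7 rows of that list were tested, and 3 of them, MRPL23, MRPL17 and MRPL4, were among the 9. That is 42.9% of a list of 7, beside 6.68% of all tested genes that were higher at this p. MRPL23 stood at 29.2, 33.3 and 31.5 CPM in the knockdown and 28.2, 24.96 and 27.2 in the control, and MRPL17 at 30.5, 34.6 and 30.1 against 26.0, 29.3 and 26.7. In both, every knockdown library exceeded every control. Changes were 0.23 ± 0.08 and 0.22 ± 0.08 (log2, SE), with adjusted p of 0.231 and 0.261 (edgeR). MRPL4 rested on 32 to 60 counts per library, or 1.37, 1.80 and 1.86 CPM against 1.13, 1.16 and 1.02. Its groups did not overlap either, but the interval of its log2 fold change of 0.61 ran from 0.02 to 1.19 (95%), and 95.5% of its span lies inside other annotated genes. The other 4 tunnel proteins were MRPL22 at 0.03, MRPL45 at -0.05, MRPL24 at -0.07 and MRPL47 at -0.08, and the median of the 7 was 0.03. MRPL45, which holds the ribosome to the inner membrane, stood at 60.0, 59.1 and 54.5 CPM against 60.4, 60.4 and 58.5.

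MRPL54, specific to mitochondria, stood at 7.44, 10.4 and 7.64 CPM in the knockdown and 7.07, 6.38 and 6.30 in the control. MRPL19, which has a bacterial relative, stood at 6.80, 7.52 and 8.07 against 6.05, 6.15 and 5.92. Neither gene's groups overlapped, and in MRPL54 library b stood well above the other knockdown libraries. Changes were 0.37 ± 0.15 and 0.30 ± 0.12 (log2, SE), with adjusted p of 0.279 and 0.288 (edgeR). Other genes cover 88.9% of the span of MRPL19, chiefly GCFC2 on the opposite strand. Of the exon bases of MRPL19, 2.87% are shared with exons of other genes. Reads from bases shared with a gene on the opposite strand can be assigned only if strand was used in the count, which is not stated.

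In all, the groups did not overlap in 10 of 63 members (15.9%), beside 18.9% of all tested genes. In 8 members all knockdown libraries were above all controls, and these were MRPS34, MRPS26, MRPL23, MRPL17, MRPL54, MRPL19, MRPL4 and MRPL55. Among all tested genes that share was 9.55% higher and 9.37% lower. The 2 members lower in all knockdown libraries were MRPS9 and MRPL42. MRPS9, a head protein of the small subunit with a bacterial relative, stood at 61.8, 60.3 and 63.2 CPM against 65.3, 65.1 and 72.1. MRPL42 stood at 95.3, 97.7 and 103 CPM against 104, 108 and 106. These differences, of -0.13 ± 0.07 and -0.11 ± 0.06 (log2, SE), missed the threshold, with adjusted p of 0.414 and 0.469 (edgeR). MRPS28 had the most negative change of the small subunit, at 21.7, 18.5 and 24.1 CPM against 24.9, 22.4 and 25.1, and there the groups overlapped.

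**Figure D2:**
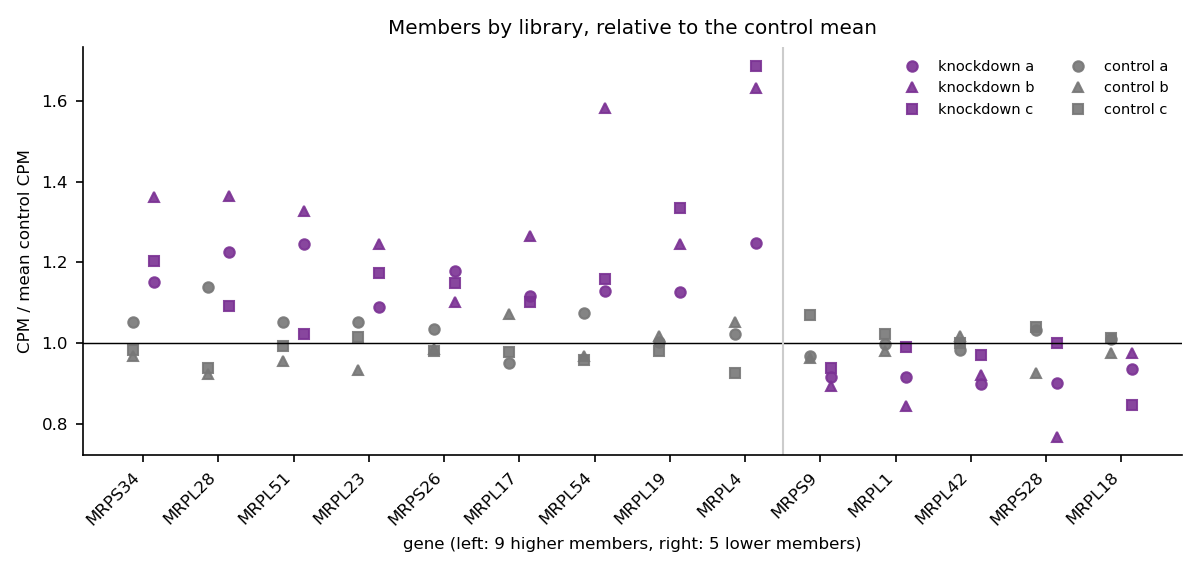
CPM of each library divided by the control mean of the gene (vertical axis), for the 9 members with an unadjusted p under 0.05 and the 5 lower members of smallest p. Purple marks are knockdown and grey marks control, and the shape gives the letter; in MRPL28 and MRPL51 the knockdown c square lies below control a.

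Promoter stretches of these members are shown because of short motifs found in them. Of 5 motifs searched, those of ETS factors and YY1 stood furthest above their share of all windows, members included. Those of NRF1 and SP factors were above it by less, and the TATA box was below it. RefSeq windows from 250 bases before to 50 after the start (GRCh38.p14) were found for 67 members, 83 windows in all. The ETS-type letters CCGGAAG, the core bound by GABP and related factors, occurred on either strand in 32 of 83 windows (38.6%), beside 10.3% of 35116 windows of all genes and 12.8% of 22198 windows of protein-coding genes. The letters AAGATGGC, those of YY1, occurred in 23 windows (27.7%), beside 2.89% and 3.53%. The NRF1 letters, GCGC, then any 2 bases, then GCGC, occurred in 10 windows (12.05%), beside 8.32% and 10.6%. The letters GGGCGG, those of SP factors, occurred in 50 windows (60.2%), beside 44.95% and 56.3%, and TATAAA, the TATA box, in 3 windows (3.61%), beside 11.5% and 9.47%. The small subunit had the ETS letters in 14 of 33 windows (42.4%) and the large subunit in 18 of 50 (36.0%). These matches are letters in a window and not measured binding sites. Below, 30 bases around a match are given 5′ to 3′ on the gene's strand, with the matched letters in capitals (CTTCCGG is CCGGAAG read on the other strand).
MRPS34: ccggcctCTTCCGGtgaCTTCCGGccggac
MRPS26: ttccccgcgccgCTTCCGGggcacggtggc
MRPL54: ggccactgacgtCTTCCGGaaacgtgcact
MRPL51: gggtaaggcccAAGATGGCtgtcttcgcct
MRPL42: aggattgaaacAAGATGGCgggttcgtggt
MRPL17: aggctctgatGCGCATGCGCaaacacgttc
MRPS9: cgcgccattaGCGCCTGCGCcgtctctagg

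The MRPS34 stretch, chr16:1773141-1773170 on the minus strand, holds 2 of the 3 ETS matches of that window, which begin 71, 29 and 19 bases before the start. The MRPS26 stretch is chr20:3046003-3046032 and the MRPL54 stretch chr19:3762649-3762678, both on the plus strand, with matches that begin 37 and 21 bases before the start. The YY1 matches of MRPL51 (chr12:6493223-6493252, minus strand) and MRPL42 (chr12:93467511-93467540, plus strand) begin 21 and 8 bases after it. The NRF1 matches of MRPL17 (chr11:6683402-6683431, minus strand) and MRPS9 (chr2:105038019-105038048, plus strand) begin 81 and 40 bases before it. ETS matches not shown begin 119 and 104 bases before the start in MRPL51 and 7 bases after it in MRPL28. Another begins 26 bases before the start in a window of MRPL18, a lower member. Members that were higher and members that were lower thus both had such matches. The 9 members with an unadjusted p under 0.05 had 9 windows in 8 genes, of which 5 held the ETS letters.

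By structural group, medians of the log2 fold change ran from -0.08 in the central protuberance to 0.11 in the stalk, beside 0.02 over all tested genes. Small-subunit proteins with bacterial relatives had a median of 0.02 over 12 tested genes and those found in mitochondria only 0.01 over 12. In the large subunit these medians were 0.03 over 25 genes and 0.04 over 14. Of the members with an unadjusted p under 0.05, 0, 2, 5 and 2 fell in these 4 groups, in that order, all higher. As shares of the tested genes of each group these were 0%, 16.7%, 20.0% and 14.3%, beside 6.68% of all tested genes that were higher. The stalk proteins, which recruit translation factors, were MRPL10 at 45.6, 48.4 and 41.0 CPM against 40.1, 45.4 and 38.4, and MRPL11 at 39.3, 42.0 and 36.7 against 38.4, 34.8 and 37.2. Both pairs of groups overlapped, with changes of 0.13 ± 0.08 and 0.10 ± 0.08 (log2, SE). The 3 tested proteins of the central protuberance, MRPL18, MRPL48 and MRPL46, lay below 0, at -0.12, -0.08 and -0.03. Of the proteins around the peptidyl transferase centre, MRPL27 was at 0.07, MRPL3 at 0.02 and MRPL16 at -0.02. The small-subunit head gave a median of -0.01 over 4 genes, with MRPS14 at 0.11 and MRPS9 at -0.13 as its extremes. MRPS5, on the path of the messenger RNA, was at -0.03. No unadjusted p in the stalk, the protuberance, the peptidyl transferase group or the head was under 0.05.

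Some members carry a small-subunit name without being small-subunit proteins. MRPS18 has 3 nuclear copies, of which MRPS18A sits in the large subunit. MRPS18A stood at 25.7, 26.8 and 25.7 CPM in the knockdown and 29.2, 26.0 and 24.9 in the control. MRPS18B changed by 0.09 ± 0.08 and MRPS18C by 0.18 ± 0.11 (log2, SE), and all 3 copies had overlapping groups. MRPS30, also a large-subunit protein by structure, stood at 94.6, 108 and 83.4 CPM against 91.5, 94.6 and 94.7, so the knockdown libraries lay on both sides of the controls. MRPS36, which belongs to the 2-oxoglutarate dehydrogenase complex, stood at 16.8, 16.2 and 12.9 against 15.7, 16.5 and 16.1. With members placed by structure, the median was 0.04 over 21 small-subunit genes and 0.03 over 41 large-subunit genes.

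Levels per kb of annotated exon spread far more between members than between groups. In the large subunit MRPL3 was highest at 67.0 CPM per kb, followed by MRPL15 at 53.2 and MRPL37 at 38.0. In the small subunit MRPS21 led at 41.7, then MRPS34 at 39.2 and MRPS9 at 33.7. The lowest tested levels were MRPL4 at 0.341 and MRPL46 at 0.518 in the large subunit, and MRPS17 at 0.814 and MRPS2 at 2.38 in the small. All 4 of these low genes lie largely inside other annotated genes, with 67.2% of the span covered in MRPS2 and 95.5% or more in the rest. The most abundant member, MRPL3, stood at 185, 192 and 173 CPM against 178, 178 and 187. Its groups overlapped, and the 95% interval of its log2 fold change ran from -0.12 to 0.16.

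The proportion of small-subunit to large-subunit counts differed between groups by less than the spread between libraries. Summed small-subunit counts were 978, 974 and 923 CPM in the knockdown and 931, 937 and 932 CPM in the control, scaled here by plain library totals. Summed large-subunit counts were 1521, 1525 and 1405 CPM against 1443, 1437 and 1435. In both sums knockdown a and b lay above all controls and knockdown c below all controls, while the controls lay close together. The ratio of small to large was 0.643, 0.639 and 0.657 in the knockdown and 0.645, 0.652 and 0.650 in the control, and the groups overlapped. Means were 0.646 ± 0.00958 and 0.649 ± 0.00361 (SD, n = 3 each), which differ by -0.006 on the log2 scale. These sums and ratios place members by name, so MRPS30, MRPS18A and MRPS36 are in the small sum. With members placed by structure the log2 ratio was lower, at -0.975, -1.007 and -0.921 against -0.972, -0.958 and -0.962. By name it was -0.638, -0.646 and -0.606 against -0.633, -0.617 and -0.622. The groups overlapped either way. These are counts of RNA, and in bulk samples fewer cells of a type and less RNA per cell cannot be told apart.

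**Figure D3:**
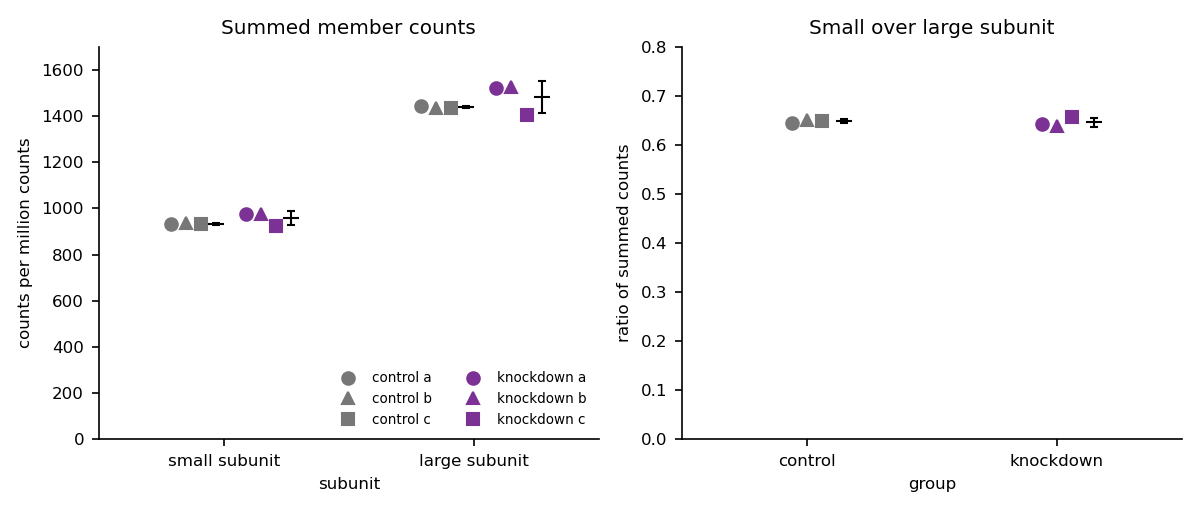
Left, summed counts of the small-subunit and large-subunit members, placed by name, in CPM (by plain totals) in each library. Right, the ratio of the small to the large sum. Points are libraries (purple knockdown, grey control) and both vertical axes start at 0; knockdown c is the lowest library in both sums, and the ratios of the 2 groups overlap, all 6 lying from 0.639 to 0.657.

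Members varied more among the knockdown libraries than among the controls, as did all tested genes. The coefficient of variation of a member over 3 libraries had a median of 7.61% in the knockdown and 4.98% in the control, beside 10.03% and 8.05% over all tested genes. It was larger in the knockdown for 41 of 63 members (65.1%), beside 62.4% of all tested genes. Over the 14846 tested genes within the members' range of CPM the medians were 8.54% and 6.94%, with 61.8% larger in the knockdown. Knockdown b was the highest of the 6 libraries for 26 members (41.3%), beside 24.2% of all tested genes. Knockdown c was the lowest for 24 members (38.1%), beside 16.5%. The median deviation of large-subunit members from their mean was 0.03, 0.10 and -0.06 (log2) in knockdown a, b and c, against 0.00, 0.00 and -0.03 in the controls. What set libraries b and c apart was not tested.

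Change went with gene span among members, but not to the same extent in every knockdown library. Over 63 members, the Spearman correlation of the log2 fold change with the annotated span was -0.51, and Pearson's r on log10 span was -0.47. Spearman's rho was -0.61 over 24 small-subunit and -0.45 over 39 large-subunit members, and -0.17 over the 15962 tested genes with a span. These are correlations across genes measured in the same 6 libraries, and genes are not independent replicates. The 32 members with a span up to 12.6 kb, the median, had a median change of 0.09, with 23 above 0 (71.9%) and 7 of the 9 members with an unadjusted p under 0.05. The 31 longer members had a median of -0.03, with 12 above 0 (38.7%) and the other 2, MRPL23 and MRPL19. All tested genes up to that span had a median of 0.07 with 65.8% above 0, and all longer genes 0.01 with 51.4%. By library, short members had a median deviation from their mean of 0.050, 0.123 and -0.044 (log2) in knockdown a, b and c. In the controls it was -0.044, -0.061 and -0.053, so for short members knockdown c lay within the range of the controls. Long members had 0.002, 0.027 and -0.051 in the knockdown and 0.014, 0.027 and -0.006 in the controls. Short members thus stood above long members in every knockdown library, in knockdown c only slightly, and below them in every control. Over all short genes the median deviation was 0.012, 0.110 and 0.007 in the knockdown against 0.019, -0.038 and -0.064. Higher at an unadjusted p under 0.05 were 21.9% of the short and 6.45% of the long members, beside 8.70% and 7.28% of all short and long genes. MRPS34, MRPS26, MRPL51 and MRPL17 span 1.27, 2.31, 1.96 and 2.62 kb, whereas MRPS9, MRPL42 and MRPL1 span 62.0, 48.7 and 90.3 kb. With each library's trend on span removed, the medians were -0.03 for the small and -0.01 for the large subunit. Over all genes in that fit the median was -0.01. At an unadjusted p under 0.05 there were 5 members higher and 1 lower, beside 5.73% and 8.45% of all genes in that fit.

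**Figure D4:**
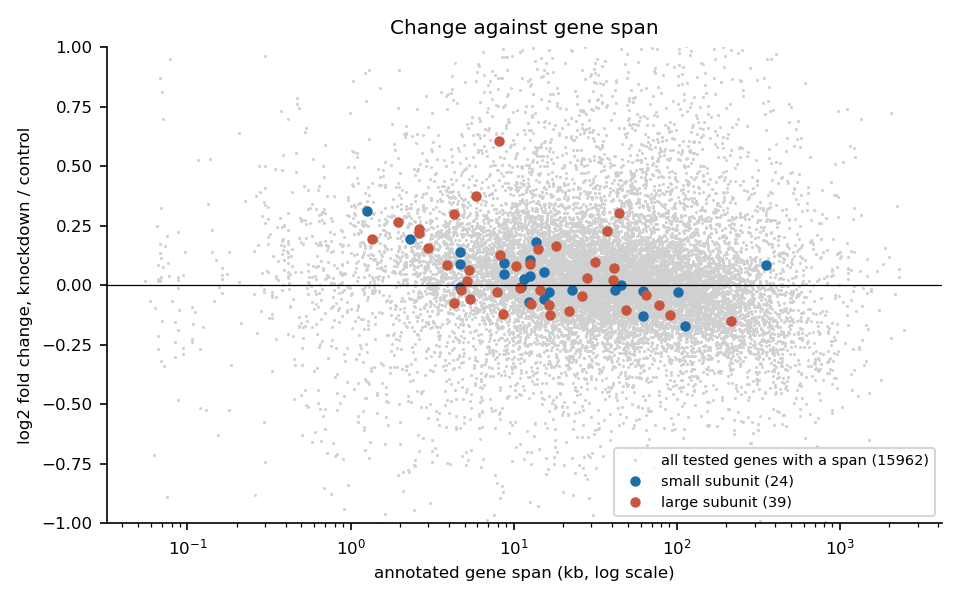
Log2 fold change (vertical axis, knockdown over control) against annotated gene span in kb (log axis) for 24 small-subunit members, 39 large-subunit members and, in grey, all 15962 tested genes with a span, of which 162 lie outside the plotted range. Short members lie mostly above 0 and long members mostly at or below it, with a Spearman correlation of -0.51 over members.

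A further 13 members could not be tested, of which 11 were listed at 0 in all 6 libraries. These were MRPS11, MRPS12, MRPS16 and MRPS24 of the small subunit and MRPL2, MRPL12, MRPL30, MRPL34, MRPL38, MRPL40 and MRPL49 of the large. MRPS12 is a protein of the decoding site, MRPL12 a stalk protein and MRPL2 part of the surroundings of the peptidyl transferase centre. MRPS6 and MRPL53 had 4 counts each over all libraries. A count of 0 allows up to 3 counts, or 0.0820 to 0.1196 CPM by library, counting error only. Since genes that most cells use are among them, the rows are described only as listed at 0.

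All 13 untested members had at least 97.9% of their span inside other annotated genes, on either strand. Of the 12 members wholly covered in this way, 10 were at 0 (83.3%), and the exceptions were MRPS17 with 321 counts and MRPS28 with 4158. None of the 27 members with no overlap was at 0, and the lowest of them had 1380 counts. Among all protein-coding rows, 79.9% of 1630 wholly covered genes were at 0, against 5.05% of 6926 with no overlap. MRPL40 lies inside HIRA and C22orf39 on the opposite strand and shares no exon base with another gene, and it was at 0 too. MRPL2 lies inside KLC4, MRPL34 inside ABHD8, MRPL49 inside SYVN1 and MRPS24 inside the readthrough gene URGCP-MRPS24. Zeros also occurred with little or no overlap outside the members. DAP3, a mitochondrial ribosomal protein with another symbol, was at 0 with 2.95% of its span covered. MTERF, of mitochondrial DNA transcription, was at 0 with 0.0% covered. The part that counting played in these zeros was not tested. Of 66 rows named as pseudogenes of members, 20 had any count and 1 had more than 100, which was MRPL45P2 with 4901 counts and a change of -0.14 ± 0.11 (log2, SE; adjusted p 0.617, edgeR).

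**Figure D5:**
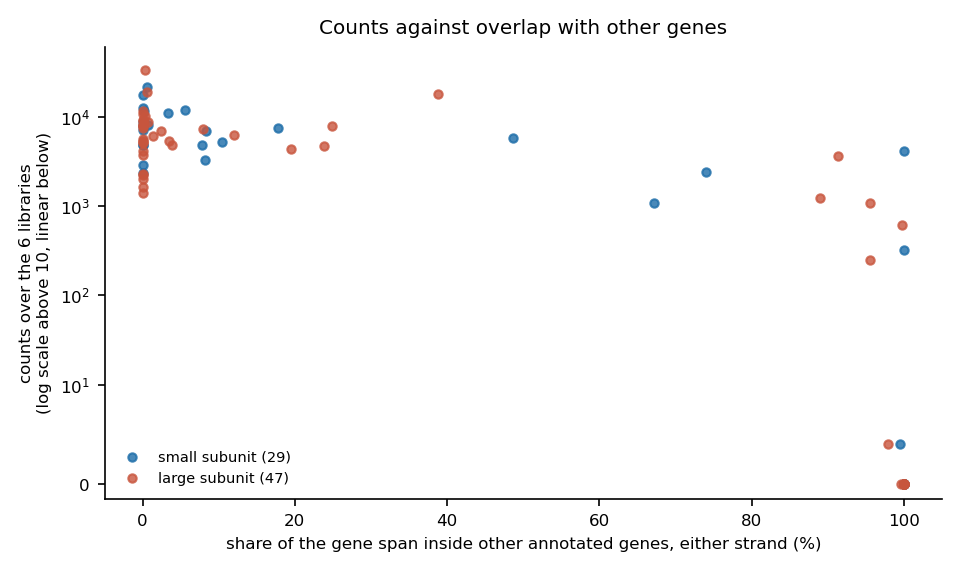
Counts of each of the 76 members over the 6 libraries (vertical axis, log scale above 10) against the share of its span that lies inside other annotated genes (horizontal axis, %). The 11 members at 0 all lie at the right edge, at 99.7% or more, while members with no overlap start at 1380 counts.

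Mitochondrial ribosomal proteins with other symbols, and genes that work with the ribosome, also gave no call. Of 7 subunit genes with other symbols, 6 were tested, with a median of 0.16, and DAP3 was listed at 0. At an unadjusted p under 0.05, 2 of these 6 were higher and 0 lower (33.3%), beside 14.3% of all tested genes in either direction. GADD45GIP1, a large-subunit protein, stood at 25.7, 24.4 and 21.2 CPM against 21.5, 18.4 and 15.5, and AURKAIP1, a small-subunit protein, at 41.8, 50.01 and 38.0 against 38.5, 34.2 and 34.1. Knockdown c overlapped the control in both, and the adjusted p were 0.185 and 0.217 (edgeR). With no low-count filter both passed (adjusted p 0.0114 and 0.0264, edgeR), GADD45GIP1 passed with the replicate letter as a block (0.0476) and AURKAIP1 without knockdown c (0.0428). Without control c their adjusted p were 0.592 and 0.593, the highest of 15 alternatives. ICT1, the peptidyl-tRNA hydrolase now named MRPL58, stood at 18.5, 19.0 and 19.0 CPM against 20.2, 20.4 and 19.2, all below the controls by a narrow margin.

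Of 25 assembly factors 23 were tested, with a median of 0.03, and at an unadjusted p under 0.05 there were 1 higher and 2 lower. At this p, the share in either direction was 13.0% for assembly factors, 7.14% for translation factors and 13.3% for synthetases. For transcription and RNA genes it was 6.25%, and for regulators 10% (1 of 10). These lists all lay under the 14.3% of all tested genes, whereas subunit genes with other symbols lay above it, at 33.3% (2 of 6). The 2 lower assembly factors modify the small-subunit ribosomal RNA. TFB1M stood at 39.4, 39.4 and 43.9 CPM in the knockdown and 49.9, 47.4 and 49.99 in the control, with no overlap and an adjusted p of 0.114 (edgeR). METTL15 stood at 103, 96.4 and 144 against 150, 130 and 163, with overlap, and at an adjusted p of 0.236 (edgeR). TFB1M passed with the DESeq2 Wald test (adjusted p 0.0487), and both passed in edgeR fits with no low-count filter (0.0423 for TFB1M and 0.000298 for METTL15) and without knockdown c (0.0138 and 0.00312). METTL15 also passed with the replicate block (0.0210). Without control c the adjusted p were 0.442 and 0.632, the highest of 15 alternatives. The higher gene, named after its value was seen, was FTSJ2, a methyltransferase of the large-subunit ribosomal RNA, at 0.18 (log2). Translation factors gave a median of 0.01 over 14 of 15 genes, with 1 higher, the elongation factor TUFM (165, 173 and 153 CPM against 149, 148 and 149). Mitochondrial aminoacyl-tRNA synthetases gave -0.02 over 15 of 17 genes, with PARS2 higher and WARS2 lower at an unadjusted p under 0.05. Genes of mitochondrial DNA transcription and RNA handling gave 0.04 over 16 of 19, with KIAA0391, the nuclease subunit of mitochondrial RNase P, lower. Nuclear regulators of these genes gave 0.00 over 10, with NRF1 lower (77.1, 80.3 and 92.0 CPM against 89.1, 94.6 and 95.9), and NRF1 had an adjusted p of 0.345 (edgeR), which over 15 alternatives ran from 0.0258 without knockdown c to 0.684 without control c.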

How the data were processed

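Gene-level RNA abundance was measured in 6 libraries of H9 cells, 3 per group. The authors deposited raw read counts per gene symbol in 1 table of 53719 rows, with whole numbers and no scaling apparent. Build hg38, Trimmomatic 0.39, STAR 2.7.8a, featureCounts and Subread 2.14.2 are named per the submitters' processing notes. The annotation used, the strand setting and the handling of reads shared by several genes or places are not given in the sources used here. Such reads bear on members that overlap another gene or have a pseudogene.

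All 6 libraries were fitted with edgeR 4.0.16 (R 4.3.3) by its quasi-likelihood test. The low-count filter of edgeR left 19721 genes, scaling was by TMM, and the group was the only term. Tests were two-sided, with Benjamini-Hochberg adjustment over all 19721 genes and a threshold of 0.05. The common biological coefficient of variation came to 0.103. CPM values, that is counts divided by library size, used TMM-scaled library sizes, and sums over members used plain totals. Reads carry no molecular identifiers, so counting floors cover counting error only. The letters a, b and c are taken as separate samples. The labels do not say whether they came from separate cultures, so p-values measure the spread between these libraries, which may be technical.

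Of the rows, 32828 were matched to GENCODE release 29 (GRCh38), 31425 by name and 1403 by an older symbol, for coordinates, spans and exon lengths. Promoter windows were RefSeq's (GRCh38.p14, 250 bases before to 50 after each start). The fit was tested on simulated counts. Alternatives were other scalings, tests (DESeq2 1.42.0, limma 3.58.1 with voom) and filters, removal of each library's trend on gene span, the replicate letter as a block, and leaving out each library. Named members were, per subunit, the 5 with the smallest p, the 3 highest and 2 lowest per kb of exon, those not tested, and set landmarks; from each other list, the 2 with the smallest p. Values of other members are given to fill out the groups of the lists. The members and all lists were chosen with earlier results of these data known.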

Additional observations from a re-analysis of the deposited data

How the results depend on the processing

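Over the whole table, 155 genes were called with edgeR's quasi-likelihood test. The count was 536 with the DESeq2 Wald test, 235 after removal of the gene span trend, 1064 with no low-count filter, 393 with the replicate block, and 26 (without control a) to 1309 (without knockdown c) with 1 library left out. Higher calls were 27 of 155 with TMM, 45 of 157 with upper-quartile scaling and 56 of 158 with library size alone. No member was called in the fit reported; 1 was with the DESeq2 Wald test, 3 with no low-count filter, and 0 to 2 with 1 library left out. Members at an unadjusted p under 0.05 numbered 9, and 2 (without control b) to 11 (without knockdown c) with 1 library left out. The small-subunit median, 0.01, was -0.034 after removal of the gene span trend, beside -0.011 over all genes in that fit. With 1 library left out the small-subunit median was -0.026 to 0.033. The log2 difference of the small-to-large ratio, -0.006, was -0.032 as a mean of log2 CPM over members.

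Of 39 named genes that were tested, 33 kept the sign of their change in every one of up to 15 alternatives. None of the 6 that did not was called. After removal of the span trend MRPL3 was at -0.016 and MRPS30 at -0.034. With 1 library left out, MRPL3 ranged from -0.018 to 0.046, MRPS30 from -0.078 to 0.093 and MRPL44 from -0.0019 to 0.13, each lowest without knockdown b. MRPL46 ranged from -0.23 to 0.079, above 0 without control c, knockdown a or knockdown c. MRPS18A ranged from -0.080 to 0.045 (above 0 without control a) and MRPS36 from -0.14 to 0.017 (above 0 without knockdown c). The causes were not tested.

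The labels do not say whether the letters pair the libraries. Deviations of same-letter libraries correlated at 1.23e-05 (a), 0.116 (b) and -0.0251 (c). Over the whole table more genes were called with the replicate block than without it, as given above. These values do not settle whether the libraries are paired. With the replicate block, 0 members were called and 8 had an unadjusted p under 0.05. A planned correction for GC content was not run, since it needs the sequence of whole genes and only promoter windows were used here.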
